A study of Drosophila melanogaster with 42 samples.

Results

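The mitochondrial genome of Drosophila melanogaster encodes 38 of the 17208 genes counted in these wing disc libraries, chosen as every symbol that starts with mt:. They fall into 13 protein-coding genes, 2 ribosomal RNA genes, 22 transfer RNA genes and the replication origin region mt:ori. RNA came from wing imaginal discs of third-instar larvae, the epithelial sacs that form the adult wing and notum, and 42 libraries were read in 12 groups. The mutants alter fat (ft), which encodes a giant protocadherin of the Hippo and planar cell polarity pathways. On the NovaSeq X Plus the groups were Fd5-5 (2 libraries), delta HpoC (5), delta HpoN+PH (4), delta PCP (5), delta D (3) and wild type (2, called WT X Plus). On the NovaSeq 6000 they were delta A (4), delta B (4), delta C (3), delta E (4), delta F (3) and wild type (3, called WT 6000). The delta HpoC, delta HpoN+PH and delta PCP labels are functional domain mutants and the delta A to delta F labels conserved region mutants; the series design also names fat nulls, without tying them to a label. Both wild types carry w1118.csvd111 in their library names. No mutant was read on both sequencers, the labels do not give the number of animals or lines behind a library, and larval age within the third instar is not given, so p-values measure the spread between these libraries only.

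The fly mitochondrial genome is a compact circle that both strands share. Long precursors are transcribed from it, transfer RNAs within them mark where the precursors are cut, and the released messenger and ribosomal RNAs then turn over at different rates. The proteins encoded are subunits of respiratory complexes I, III and IV and of the ATP synthase, each of which also needs subunits encoded in the nucleus. The large and small ribosomal RNAs, mt:lrRNA and mt:srRNA, build the mitochondrial ribosome. In the wing disc, mitochondrial output is of interest because Fat has been linked to mitochondrial function: a cleaved fragment of its intracellular domain was found in fly mitochondria bound to a complex I subunit.

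On the mitochondrial chromosome of BDGP6 (Ensembl annotation, 1-based positions), 9 protein-coding genes lie on the plus strand. In map order these are mt:ND2 (240 to 1263), mt:CoI (1474 to 3009), mt:CoII (3083 to 3767), mt:ATPase8 (3907 to 4068), mt:ATPase6 (4062 to 4736), mt:CoIII (4736 to 5524), mt:ND3 (5608 to 5961), mt:ND6 (9971 to 10495) and mt:Cyt-b (10499 to 11635). The minus strand holds mt:ND5 (6409 to 8125), mt:ND4 (8207 to 9545), mt:ND4L (9545 to 9835) and mt:ND1 (11721 to 12659), and then mt:lrRNA (12735 to 14058) and mt:srRNA (14131 to 14916). mt:ATPase8 and mt:ATPase6 overlap by 7 bases, and mt:ATPase6 with mt:CoIII and mt:ND4 with mt:ND4L by 1 base each, all on one and the same strand. How the authors' counting treated strand and reads that run across such borders is not given in the sources used here, so the split of counts within those neighbours is uncertain.

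Total counts ran from 19538216 to 48392408 per library. The targeted gene ft was read in every group, at 592 to 691 CPM (counts relative to the TMM-scaled library total) in Fd5-5 and 220 to 767 CPM in the other 9 mutants, against 328 to 371 CPM in WT X Plus and 464 to 676 CPM in WT 6000, so its count does not check the labels. Wing disc epithelial markers (7 of 7 found, none at 0 in any group) summed to 864 to 3126 CPM per library. Muscle markers (8 of 8 found) summed to 784 to 1405 CPM in WT X Plus and 19.5 to 37.5 CPM in WT 6000, and fat body markers (5 of 5 found) ranged from 1.59 to 12602 CPM over all libraries. Salivary gland markers (6 of 6 found) ranged from 0.0679 to 205 CPM and tracheal markers (2 of 2 found) from 16.6 to 76.5 CPM. Each comparison below gives only some of these lists, and the others may differ as well. The share of counts on 44 nuclear ribosomal RNA genes split the libraries at 3% into 21 at 3.80% to 16.6% and 21 at 0.519% to 1.35%. All delta A, delta C, delta F and WT X Plus libraries lay above 3%, all Fd5-5, delta D and WT 6000 libraries below it, and delta HpoC (3 of 5 above), delta HpoN+PH (1 of 4), delta PCP (1 of 5), delta B (3 of 4) and delta E (1 of 4) held both kinds. In rank correlation over genes other than these members and ribosomal RNA, 8 libraries had both a higher mean correlation with another group of the same machine than with their own and their single closest library in another group: delta HpoC 1 and 5, delta HpoN+PH 1, delta PCP 1, 2 and 5, delta B 4 and delta E 4. A further 10 met the first condition alone, and Fd5-5 1 and 2, delta HpoN+PH 3 and WT 6000 1 met the second alone. All of these were kept. The nearest labels were delta F for delta E 4, WT 6000 for delta B 4 and WT X Plus for delta PCP 5. Results are given with and without these 8, the out-of-place libraries, and leaving them out shrinks the spread by construction.

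Transfer RNAs, which are 62 to 72 bases long here, were close to absent from the libraries. In 42 libraries together, 8 of the 22 transfer RNA genes received 30 counts, and the highest count of a single gene in a library was 3. The transfer RNA for alanine, mt:tRNA:Ala-TGC (5983 to 6047, plus strand), led with 9 counts in 9 libraries. The other 14 genes had 0 counts. The origin region mt:ori (14917 to 19524) received 8 counts in all. None of these 23 members passed the filter on low counts on either sequencer, so no comparison of them is given. All 13 protein-coding and both ribosomal RNA genes passed on both sequencers.

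Levels per length differed widely among the 15 remaining members. On the scale of CPM per kb of gene, mt:lrRNA was highest, with a median over the 42 libraries of 4424. The complex IV subunits followed, mt:CoIII at a median of 1126, mt:CoII at 998 and mt:CoI at 719 CPM per kb. mt:Cyt-b, the only complex III subunit encoded here, was at 478 and mt:ATPase6, a membrane subunit of the ATP synthase, at 411 CPM per kb. The complex I subunits were lower and spread widely: mt:ND4 had a median of 132 CPM per kb, mt:ND5 86.1, mt:ND1 31.9, mt:ND3 18.3, mt:ND4L 5.00, mt:ND2 1.39 and mt:ND6 1.20. The second ATP synthase subunit, mt:ATPase8, stood at 24.5 CPM per kb.

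The order was steady at its top and bottom and mixed in between. mt:CoIII was the highest protein-coding gene per kb in 28 libraries, mt:CoII in 13 and mt:ATPase6 in 1. mt:CoI never ranked below the fourth place and mt:Cyt-b never below the fifth among the protein-coding genes. mt:ND2 and mt:ND6 had overlapping ranges, 0 to 48.7 and 0 to 49.4 CPM per kb, and stayed between places 11 and 13 in every library.

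**Figure D1:**
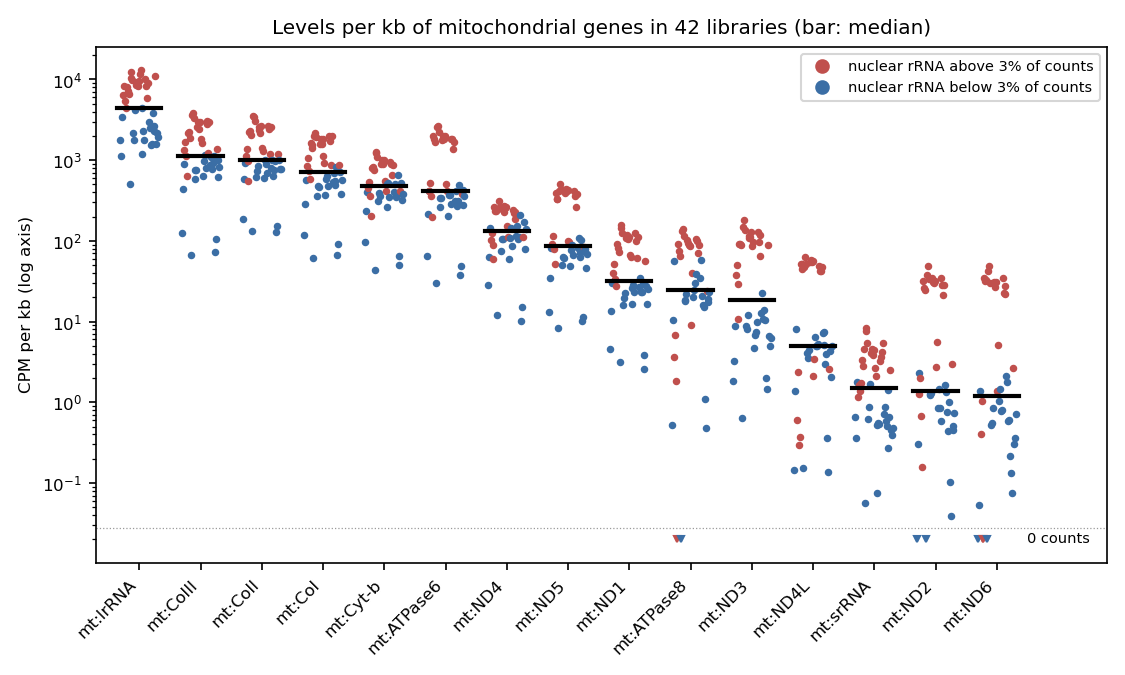
Levels of the 13 protein-coding and 2 ribosomal RNA genes in CPM per kb (log axis), one point per library, red for libraries with nuclear ribosomal RNA above 3% of counts and blue for those below; bars are medians over 42 libraries and triangles mark 0 counts. mt:lrRNA had the highest median (4424) and mt:ND6 the lowest (1.20), and mt:ND2 ran from 0 to 48.7 while mt:CoII ran from 127 to 3513.

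Some neighbours on a strand had similar levels, such as mt:CoI and mt:CoII (medians of 719 and 998 CPM per kb) or mt:ND5 and mt:ND4 (86.1 and 132), and others were far apart. mt:ND4 exceeded mt:ND4L, which it overlaps by 1 base, by 4.21 to 304 times per kb (median 21.5). mt:ATPase6 exceeded mt:ATPase8 by 7.12 to 196 times per kb in the 40 libraries where mt:ATPase8 had counts (median 19.1). mt:Cyt-b exceeded mt:ND6, which lies just before it on the same strand, by 22.7 to 4298 times in 38 libraries (median 289). No transfer RNA gene lies between the genes of any of these pairs, and mt:ATPase8 (162 bases) and mt:ND4L (291 bases) are short. The ratios are of assigned counts, so they cannot be read as levels of separate transcripts. The same limit holds for the fold changes of these genes below. The ribosomal RNA genes were further apart still. mt:lrRNA exceeded mt:srRNA by 1338 to 15571 times per kb (median 2983), and mt:srRNA had a median of 30.5 counts per library and at most 223.

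Grouped by complex, the 3 complex IV genes took 55.6% to 76.1% of the protein-coding mitochondrial counts of a library (median 67.2%). The 7 complex I genes took 8.18% to 14.6% (median 10.2%), mt:Cyt-b 9.50% to 17.4% (median 13.5%) and both ATP synthase genes together 5.66% to 16.6% (median 7.82%).

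Mitochondrial output varied strongly between libraries, also within a group. The 13 protein-coding genes together took from 0.0377% of counts (delta B 4) to 1.23% (delta C 1). mt:lrRNA took from 0.0742% (delta B 4) to 1.59% (WT X Plus 2). Both ran higher in the class above 3% nuclear ribosomal RNA. The protein-coding share was 0.222% to 1.23% in the 21 libraries above 3%, against 0.0377% to 0.453% in the 21 below. The mt:lrRNA share was 0.554% to 1.59%, against 0.0742% to 0.656%. The ranges overlapped for both measures, and with nuclear ribosomal RNA left out of the total the protein-coding share was still 0.260% to 1.31% against 0.0380% to 0.456%. Within the class above 3% the protein-coding share did not rise with nuclear ribosomal RNA. It was 1.09% to 1.23% in delta C, at 3.80% to 6.85% nuclear ribosomal RNA, and 0.222% to 0.504% in delta A, at 13.1% to 16.6%. In bulk tissue, fewer cells of a type and less RNA per cell cannot be told apart.

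**Figure D2:**
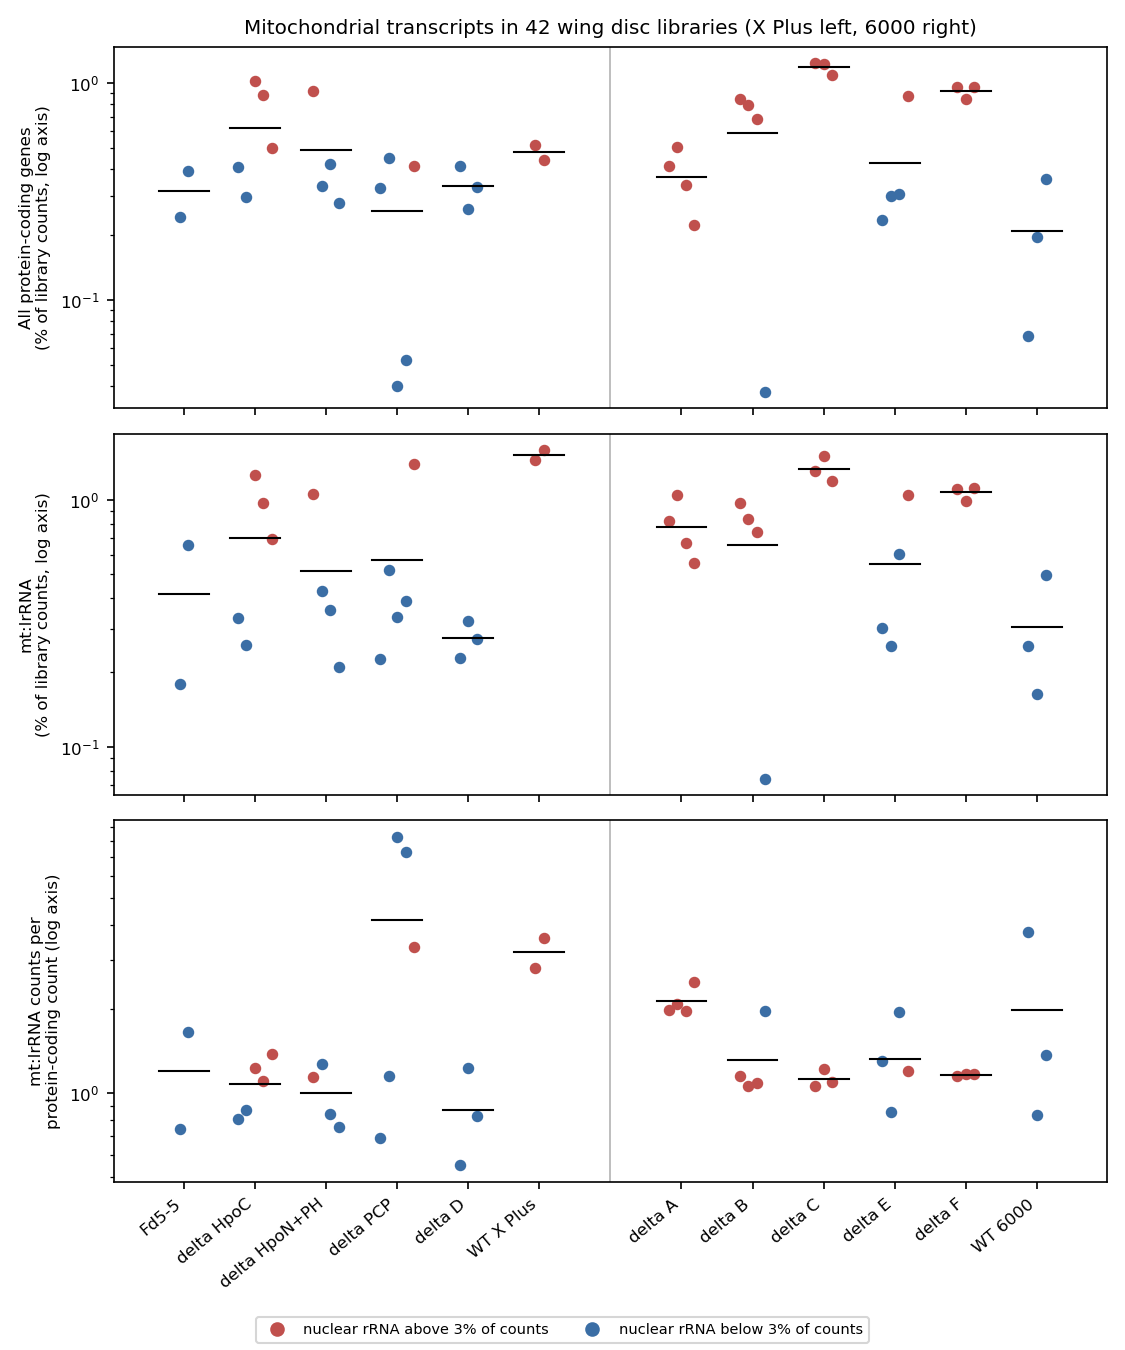
Protein-coding mitochondrial counts and mt:lrRNA as percent of library counts, and mt:lrRNA counts per protein-coding count (log axes), one point per library and a bar at each group mean; red and blue mark nuclear ribosomal RNA above and below 3% of counts. The delta C and delta F libraries have protein-coding shares of 0.847% to 1.23%, above the 0.0682% to 0.361% of WT 6000, and delta B, delta E, delta HpoC and delta HpoN+PH split by colour.

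Delta C against WT 6000 asked what the mutation of conserved region C does, and it gave the most calls: 14 of the 15 members rose (65.8% of all genes tested passed in either direction, 33.8% as higher). mt:ND6, a small complex I subunit, had 22.1, 25.9 and 15.6 CPM in delta C libraries, against 0, 0.0284 and 0.720 CPM in WT 6000 libraries. The groups did not overlap, and the log2 fold change of 6.34 (SE 1.90) passed edgeR's quasi-likelihood test after Benjamini-Hochberg adjustment over all genes (adjusted p = 0.00767). mt:ND3, another complex I subunit, had 53.3, 64.0 and 48.6 CPM in delta C, against 0.641, 1.16 and 3.09 CPM in WT 6000 (log2 5.04, SE 1.26, edgeR adjusted p = 0.00232). mt:CoI, the catalytic core of complex IV, had 3078, 3288 and 2962 CPM in delta C, against 181, 438 and 863 CPM in WT 6000 (log2 2.62, SE 0.79, edgeR adjusted p = 0.00817). mt:lrRNA had 13669, 16555 and 12940 CPM in delta C, against 2358, 1472 and 4543 CPM in WT 6000 (log2 2.34, SE 0.71, edgeR adjusted p = 0.00845).

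All 15 members were higher in every delta C library than in any WT 6000 library, but the share of all genes that separated in this way was not counted. Of the members that passed, mt:ND4 changed least (log2 1.76, SE 0.71, edgeR adjusted p = 0.0385) and mt:ND2 rose by log2 5.48 (SE 1.68). mt:ATPase8 alone missed the threshold, at 21.0 ± 1.97 CPM in delta C and 3.63 ± 4.80 CPM in WT 6000 (SD, n = 3 each; edgeR adjusted p = 0.0935). The median log2 change of the 13 protein-coding genes was 3.09, against 0.03 over all genes tested. All delta C libraries lay above and all WT 6000 libraries below 3% nuclear ribosomal RNA, so the mutation and that class cannot be told apart. Muscle markers summed to 89.0 to 477 CPM in delta C, against 19.5 to 37.5 CPM in WT 6000, and wing disc epithelial markers to 864 to 1180 CPM, against 2196 to 2851 CPM; their part was not tested. With the class as a term, which on this sequencer rests on delta B and delta E alone, 0 members passed (13.0% of all genes did) and 12 of the 14 fold changes turned negative. Delta B 4 is the only delta B library below 3%, and delta E 4 the only delta E library above it. Both are out-of-place libraries, so the term cannot tell the class from what sets those libraries apart.

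Delta F against WT 6000, a comparison that shares its wild-type libraries with that of delta C, had 13 of 15 members higher (56.7% of all genes passed, 28.2% as higher). mt:ND6 had 16.2, 14.2 and 16.4 CPM in delta F, against 0, 0.0284 and 0.720 CPM in WT 6000 (log2 5.86, SE 1.87, edgeR adjusted p = 0.0142). mt:ND5, a large complex I subunit on the minus strand, had 753, 723 and 731 CPM in delta F, against 22.3, 59.2 and 140 CPM in WT 6000 (log2 3.24, SE 0.98, edgeR adjusted p = 0.0109). mt:ATPase6 had 1344, 1224 and 1327 CPM in delta F, against 43.4, 146 and 277 CPM in WT 6000 (log2 2.99, SE 0.99, edgeR adjusted p = 0.0169). Delta F libraries lay close together and WT 6000 libraries far apart. Muscle markers summed to 77.9 to 118 CPM in delta F, against 19.5 to 37.5 CPM in WT 6000, and wing disc epithelial markers to 1272 to 1379 CPM, against 2196 to 2851 CPM; their part was not tested.

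mt:ND4 (log2 1.66, edgeR adjusted p = 0.0553) and mt:ATPase8 (log2 1.93, edgeR adjusted p = 0.194) did not pass in delta F. The median log2 change of its protein-coding genes was 2.73, against −0.03 over all genes. The count of 13 fell to 2 without WT 6000 2 and to 3 without WT 6000 1, but the share of all genes in those fits was not counted. As for delta C, the groups lie wholly in opposite ribosomal RNA classes; with the class as a term 0 members passed (0.281% of all genes did), and all 13 fold changes turned negative.

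Delta B against WT 6000 had 5 members higher (32.2% of all genes passed, 19.4% as higher). These were mt:ND6, mt:ND2, mt:ND3, mt:ND5 and mt:ATPase6. mt:ND6 had 18.3, 16.5, 17.3 and 0 CPM in delta B, against 0, 0.0284 and 0.720 CPM in WT 6000 (log2 5.64, SE 1.83, edgeR adjusted p = 0.0312). mt:ATPase6 had 1335, 1230, 1126 and 20.4 CPM in delta B, against 43.4, 146 and 277 CPM in WT 6000 (log2 2.54, SE 0.94, edgeR adjusted p = 0.0473). The first 3 delta B libraries stood above every WT 6000 library and the remaining one, delta B 4, at or below the lowest of them, so the groups overlapped.

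Delta B 4 was also the delta B library with 0.718% nuclear ribosomal RNA, against 10.6% to 12.7% in the other 3. Without it, 14 of 15 members passed as higher, but the share of all genes in that fit was not counted. In the fit without all out-of-place libraries of the 6000 the same number passed (64.4% of all genes passed). There mt:ND6 was at log2 6.05 (edgeR adjusted p = 9.91e-06). The count was 0 without any single other library of delta B or WT 6000, where the share of all genes was not counted either. It was also 0 with the class as a term (0.106% of all genes passed). Wing disc epithelial markers summed to 1519 to 2143 CPM in delta B, against 2196 to 2851 CPM in WT 6000. Fat body markers summed to 38.6 to 136 CPM, against 11.6 to 22.5 CPM, and muscle markers to 29.9 to 116 CPM, against 19.5 to 37.5 CPM. The part of these markers was not tested.

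Delta A against WT 6000 had 1 member past the threshold (58.4% of all genes passed, 30.4% as higher). mt:ND3 had 13.3, 17.9, 10.4 and 3.82 CPM in delta A, against 0.641, 1.16 and 3.09 CPM in WT 6000. All 4 delta A libraries lay above WT 6000 (log2 2.74, SE 1.12, edgeR adjusted p = 0.0441). mt:CoI had 1284, 1624, 1127 and 910 CPM in delta A, against 181, 438 and 863 CPM in WT 6000, without overlap (log2 1.28, SE 0.73, edgeR adjusted p = 0.137). mt:ATPase8 pointed the other way, with 0.595, 1.09, 0.300 and 0 CPM in delta A, against 0.0855, 1.70 and 9.09 CPM in WT 6000 (log2 −2.86, SE 1.24, edgeR adjusted p = 0.0555). mt:ND6 and mt:ND2, which rose in delta C and delta F, averaged 0.189 ± 0.258 and 1.05 ± 0.808 CPM in delta A (SD, n = 4), against 0.250 ± 0.408 and 0.893 ± 1.29 CPM in WT 6000 (n = 3).

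Leaving out any delta A library other than delta A 4, or WT 6000 2, took the call of mt:ND3 away, and without the out-of-place libraries 6 members passed as higher and 2, mt:ATPase8 and mt:ND4L, as lower (69.7% of all genes passed). Delta A libraries also had fat body markers at 565 to 11074 CPM and muscle markers at 415 to 667 CPM, against 11.6 to 22.5 and 19.5 to 37.5 CPM in WT 6000; their part in these values was not tested. With the class as a term mt:ND3 turned negative and 6 other members passed as lower (4.22% of all genes passed).

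Delta E against WT 6000 had 0 of 15 members past edgeR's threshold (5.13% of all genes passed), 0 by DESeq2, and 3 of 15 at an unadjusted p under 0.05. The share of all genes by DESeq2 or at an unadjusted p was not counted, here or in the comparisons below. mt:ND3 had 3.12, 2.89, 4.26 and 40.8 CPM in delta E, against 0.641, 1.16 and 3.09 CPM in WT 6000 (log2 2.90, SE 1.13, edgeR adjusted p = 0.154). mt:CoI had 560, 729, 707 and 2413 CPM in delta E, against 181, 438 and 863 CPM in WT 6000. Delta E 4 held 9.77% nuclear ribosomal RNA, against 0.783% to 0.906% in the other delta E libraries, and alone stood above every WT 6000 library for mt:CoI. Within the ribosomal RNA class of WT 6000, which leaves 3 libraries a side, 0 members passed (14.4% of all genes did) and the median log2 change of the protein-coding genes was 0.41. In delta E muscle markers summed to 49.6 to 193 CPM, against 19.5 to 37.5 CPM in WT 6000, and their part was not tested.

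**Figure D3:**
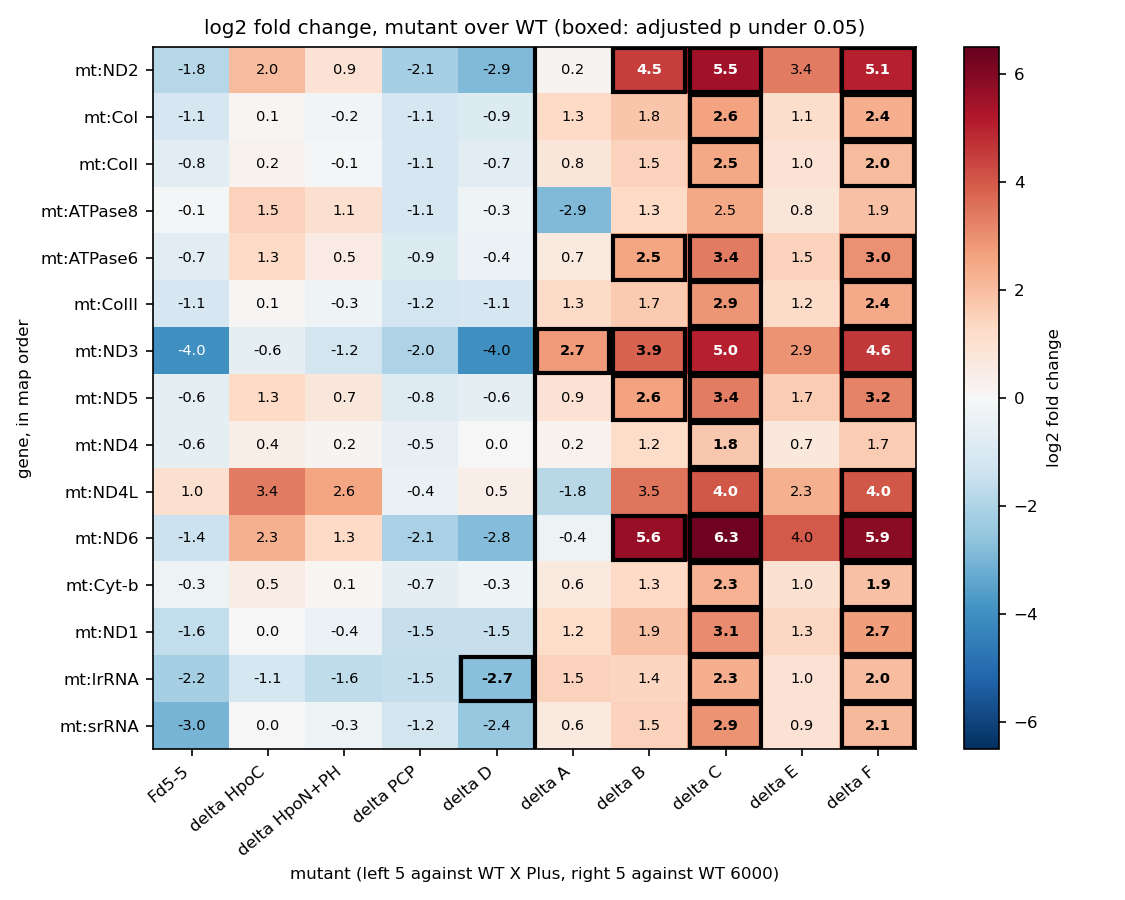
Log2 fold change of each protein-coding and ribosomal RNA gene (rows, in map order) in each mutant over the WT of its own sequencer (columns); boxes mark an edgeR adjusted p under 0.05. Delta C (14 boxes) and delta F (13) are higher nearly throughout, delta B has 5 boxes, delta A and delta D 1 each, and the other mutants 0.

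The X Plus mutants gave fewer calls, and their fold changes for ribosomal RNA were mostly negative. Delta D against WT X Plus had 1 member past the threshold (26.5% of all genes passed, 15.3% as lower). mt:lrRNA fell to 2113, 2902 and 2545 CPM in delta D, against 15686 and 17122 CPM in WT X Plus (log2 −2.71, SE 0.89, edgeR adjusted p = 0.0376). mt:srRNA had 0.355, 0.313 and 0.373 CPM in delta D, against 2.10 and 1.68 CPM in WT X Plus (log2 −2.44, SE 1.11, edgeR adjusted p = 0.0927). mt:ND3 had 2.33, 1.78 and 2.21 CPM in delta D, against 30.7 and 34.7 CPM in WT X Plus (log2 −3.96, SE 1.47, edgeR adjusted p = 0.0536). None of these 3 genes overlapped between the groups, but the share of all genes without overlap was not counted.

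The messenger RNAs of complexes III and V had fold changes nearer 0 in delta D. mt:Cyt-b had 600, 361 and 432 CPM in delta D, against 632 and 476 CPM in WT X Plus (log2 −0.26, SE 0.77). The median log2 change of the 13 protein-coding genes was −0.68, against −0.05 over all genes. Without the out-of-place libraries 5 members passed as lower, mt:lrRNA, mt:srRNA, mt:ND1, mt:ND2 and mt:ND3 (55.2% of all genes passed). The call of mt:lrRNA was lost without any single library of delta D or WT X Plus and with the class as a term (log2 −0.69, edgeR adjusted p = 0.472; 7.69% of all genes passed), and the groups lie wholly in opposite classes. With that term 12 of the 13 protein-coding fold changes in delta D were positive, with a median of 0.76. Muscle markers summed to 22.7 to 70.8 CPM in delta D, against 784 to 1405 CPM in WT X Plus. Wing disc epithelial markers summed to 2536 to 3041 CPM, against 1338 to 1421 CPM. Salivary gland markers were at 0.0679 to 0.517 CPM, against 33.9 to 88.8 CPM, and tracheal markers at 58.8 to 62.8 CPM, against 22.7 to 26.1 CPM. The part of these markers was not tested.

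Fd5-5 against WT X Plus had 0 of 15 members past edgeR's threshold (4.47% of all genes passed) and 1 by DESeq2. At an unadjusted p under 0.05 were mt:ND3 and both ribosomal RNA genes. The share of all genes by DESeq2 or at an unadjusted p was not counted. mt:lrRNA had 1571 and 5809 CPM in Fd5-5, against 15686 and 17122 CPM in WT X Plus (log2 −2.16, SE 1.0, edgeR adjusted p = 0.158). mt:ND3 had 1.68 and 2.41 CPM in Fd5-5, against 30.7 and 34.7 CPM in WT X Plus (log2 −4.00, SE 1.73, edgeR adjusted p = 0.147). Of the 13 protein-coding genes 12 had a negative fold change. The exception, mt:ND4L, had 1.86 and 1.44 CPM in Fd5-5, against 0.615 and 0.995 CPM in WT X Plus. Without the out-of-place libraries (these belong to neither group but enter the shared spread) mt:lrRNA, mt:srRNA, mt:ND1 and mt:ND3 passed as lower (37.7% of all genes passed). Fd5-5 and WT X Plus lie wholly in opposite ribosomal RNA classes, and with the class as a term, which on this sequencer rests on delta HpoC, delta HpoN+PH and delta PCP, the protein-coding fold changes were positive for 12 of 13 genes (median 0.68, against −0.75 without the term). Fd5-5 libraries held fat body markers at 650 to 7678 CPM, against 39.7 to 50.1 CPM in WT X Plus, and muscle markers at 49.2 to 112 CPM, against 784 to 1405 CPM. Wing disc epithelial markers summed to 2187 to 2382 CPM, against 1338 to 1421 CPM. Salivary gland markers were at 0.325 to 0.809 CPM, against 33.9 to 88.8 CPM, and tracheal markers at 57.5 to 58.8 CPM, against 22.7 to 26.1 CPM. The part of these markers was not tested.

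Delta HpoC against WT X Plus had 0 of 15 members past edgeR's threshold (3.82% of all genes passed). By DESeq2 1 passed, and 1 had an unadjusted p under 0.05, but the share of all genes was counted for neither. That member was mt:ND4L, with 1.45, 1.52, 14.3, 12.5 and 12.5 CPM in delta HpoC, against 0.615 and 0.995 CPM in WT X Plus (log2 3.38, SE 1.31, edgeR adjusted p = 0.214). All 5 delta HpoC libraries lay above both wild types, the last 3 of them by far. mt:ATPase6 had 252, 195, 1252, 1234 and 928 CPM in delta HpoC, against 345 and 281 CPM in WT X Plus (log2 1.30, SE 0.99, edgeR adjusted p = 0.611). Delta HpoC 1 and 2 lay at 0.914% to 1.35% nuclear ribosomal RNA and delta HpoC 3 to 5 at 8.19% to 10.7%.

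Delta HpoC was the only mutant of the X Plus with enough libraries in the class of WT X Plus for a comparison within it (3 against 2). There 8 members passed as higher and 1 as lower (46.4% of all genes passed). The rises were mt:ND4L (log2 4.09, edgeR adjusted p = 6.17e-06), mt:ND6 (log2 3.11), mt:ND2 (log2 2.83), mt:ATPase8 (log2 1.99), mt:ATPase6 (log2 1.90), mt:ND5 (log2 1.86), mt:Cyt-b (log2 0.82) and mt:ND4 (log2 0.75). mt:lrRNA fell, at 13450, 10927 and 7824 CPM in delta HpoC 3 to 5, against 15686 and 17122 CPM in WT X Plus (log2 −0.57, edgeR adjusted p = 0.0381). Within the class the delta HpoC libraries still held less nuclear ribosomal RNA, 8.19% to 10.7%, against 15.5% to 16.0% in WT X Plus; its part in these changes was not tested. Muscle markers summed to 44.7 to 153 CPM over all delta HpoC libraries, against 784 to 1405 CPM in WT X Plus, and their part was not tested either. Without the out-of-place libraries, which include delta HpoC 1 and 5, mt:ND4L alone passed as higher (log2 3.56, edgeR adjusted p = 0.0219; 7.79% of all genes passed). With the class as a term mt:ND2, mt:ND4L and mt:ND6 did (12.3% passed).

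Delta HpoN+PH against WT X Plus had 0 of 15 members past edgeR's threshold (4.84% of all genes passed), 0 by DESeq2 and 0 at an unadjusted p under 0.05. mt:ND4L had 13.7, 2.08, 2.16 and 1.50 CPM in delta HpoN+PH, against 0.615 and 0.995 CPM in WT X Plus, without overlap (log2 2.58, SE 1.26, edgeR adjusted p = 0.217). mt:lrRNA had 11999, 3917, 3313 and 2018 CPM in delta HpoN+PH, against 15686 and 17122 CPM in WT X Plus (log2 −1.64, SE 0.80, edgeR adjusted p = 0.217). Delta HpoN+PH 1 stood apart for both genes and held 10.6% nuclear ribosomal RNA, against 0.787% to 0.995% in the others. Without the out-of-place libraries mt:lrRNA (log2 −2.40) and mt:ND3 (log2 −2.57) passed as lower (44.1% of all genes passed), and with the class as a term mt:ND4L and mt:ND6 as higher (6.54% passed). In delta HpoN+PH muscle markers summed to 58.9 to 111 CPM, against 784 to 1405 CPM in WT X Plus, and their part was not tested.

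Delta PCP against WT X Plus had 0 of 15 members past edgeR's threshold (3.61% of all genes passed), 0 by DESeq2 and 0 at an unadjusted p under 0.05, although all 15 fold changes were negative. mt:CoI had 851, 1249, 102, 140 and 1339 CPM in delta PCP, against 1746 and 1402 CPM in WT X Plus (log2 −1.10, SE 0.79, edgeR adjusted p = 0.355). Delta PCP 3 and 4 were far below the other delta PCP libraries, and all 5 lay below both wild types. mt:lrRNA had 2094, 5058, 3020, 3514 and 14633 CPM in delta PCP, against 15686 and 17122 CPM in WT X Plus (log2 −1.54, SE 0.76, edgeR adjusted p = 0.236). For mt:lrRNA delta PCP 3 and 4 lay between delta PCP 1 and 2, and delta PCP 5 was close to the wild types. Without the 3 out-of-place libraries, delta PCP 3 and 4 alone remained, and all 13 protein-coding genes and mt:lrRNA passed as lower (20.0% of all genes passed). Of the 5 libraries 4 lie in the opposite ribosomal RNA class to WT X Plus; with that class in the model 7 of the 13 protein-coding fold changes were positive and their median was 0.03, against −1.09 without it. Muscle markers summed to 64.8 to 592 CPM and fat body markers to 17.7 to 12602 CPM in delta PCP, against 784 to 1405 and 39.7 to 50.1 CPM in WT X Plus, and their part was not tested.

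The wild types themselves differed. WT X Plus against WT 6000 had 2 members past the threshold (24.7% of all genes passed, 13.7% as higher). mt:lrRNA had 15686 and 17122 CPM in WT X Plus, against 2358, 1472 and 4543 CPM in WT 6000 (log2 2.56, SE 0.85, edgeR adjusted p = 0.0302). mt:ND3 had 30.7 and 34.7 CPM in WT X Plus, against 0.641, 1.16 and 3.09 CPM in WT 6000 (log2 4.32, SE 1.44, edgeR adjusted p = 0.0309). These are the genes named above for delta D and Fd5-5, which were compared with WT X Plus, so the 3 comparisons share libraries: mt:ND3 stood at 1.68 to 2.41 CPM in Fd5-5 and delta D libraries and at 0.641 to 3.09 CPM in WT 6000. Wing disc epithelial markers were at 1338 to 1421 CPM in WT X Plus and 2196 to 2851 CPM in WT 6000. Salivary gland markers were at 33.9 to 88.8 and 0.103 to 11.0 CPM, and tracheal markers at 22.7 to 26.1 and 56.5 to 76.5 CPM. Sequencer, ribosomal RNA class, these markers and the muscle markers given above moved together between the wild types and cannot be told apart here. Without any 1 of WT X Plus 1, WT X Plus 2, WT 6000 1 and WT 6000 2 both calls were lost. Without the out-of-place libraries 7 members passed (52.6% of all genes passed).

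Among all groups of a sequencer at once, edgeR's F-test called 12 of 15 members on the 6000 (77.9% of all genes passed), with mt:CoIII (adjusted p = 0.0514), mt:lrRNA (0.0629) and mt:ND4 (0.0938) outside the threshold. On the X Plus it called 1 of 15 (10.8% of all genes passed), mt:ND4L (adjusted p = 0.0365). All 15 passed there without the out-of-place libraries, but the share of all genes that passed the F-test in that fit was not counted. Against WT X Plus that fit passed from 7.79% (delta HpoC) to 55.2% (delta D) of all genes.

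The make-up of the messenger RNA pool differed between libraries as well as its amount. As a share of the 13 protein-coding genes' counts, which does not depend on library scaling, mt:ND2 fell into steps: it took 0.277% to 0.383% in 14 libraries and at most 0.119% in the other 28. The 14 were delta B 1 to 3, delta C 1 to 3, delta E 4, delta F 1 to 3, delta HpoC 3 to 5 and delta HpoN+PH 1. mt:ND6 took 0.120% to 0.214% in the same 14 libraries and at most 0.0573% elsewhere, mt:ATPase6 10.8% to 16.4% and at most 8.37%, and mt:ND5 5.47% to 7.93% and at most 4.75%. The groups of these libraries span both sequencers, and their nuclear ribosomal RNA shares ran from 3.80% to 12.7%.

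The other 7 libraries above 3% nuclear ribosomal RNA were all delta A and WT X Plus libraries and delta PCP 5, and theirs ran from 13.1% to 16.6%. In them mt:ND2 took 0.0304%, 0.0387%, 0.0189% and 0.00692% in delta A 1 to 4 and 0.0706% in delta PCP 5, against 0.050% and 0.119% in WT X Plus. In the 21 libraries below 3% it took 0% to 0.0715%, so only WT X Plus 2 lay between the steps. mt:ND3 behaved otherwise. It was highest in delta PCP 5 and WT X Plus, at 0.719% in delta PCP 5, against 0.550% and 0.731% in WT X Plus. In delta A 1 to 3 mt:ND3 took 0.287% to 0.340%. In delta A 4 it took 0.161%, within the 0.0607% to 0.206% of the 21 libraries below 3%. mt:Cyt-b separated the classes without overlap, at 9.50% to 13.2% in the 21 libraries above 3% nuclear ribosomal RNA, against 13.8% to 17.4% in the 21 below. These steps were seen in the data and have no test of their own.

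**Figure D4:**
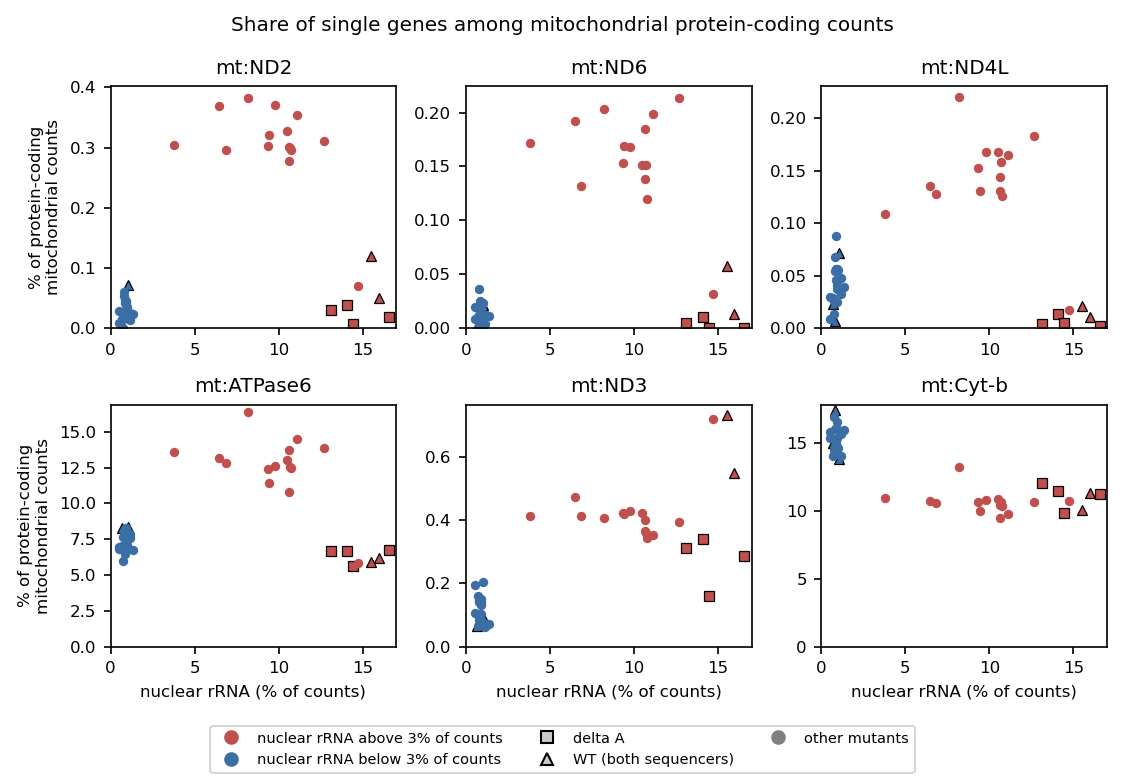
Share of 6 genes among the protein-coding mitochondrial counts of each library (percent) against the library's nuclear ribosomal RNA share (percent of counts); squares are delta A, triangles WT, circles the other mutants, and red and blue mark nuclear ribosomal RNA above and below 3%. mt:ND2 takes 0.277% or more in 14 libraries and 0.119% or less in 28; mt:Cyt-b takes 13.8% or more in every library below 3% and 13.2% or less in every library above.

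The balance of ribosomal to messenger RNA also differed between libraries. mt:lrRNA counts per protein-coding count had a median of 1.19 over all libraries. The lowest value was 0.551 in delta D 1 and the highest 8.30 and 7.35 in delta PCP 3 and 4, whose protein-coding shares were 0.0404% and 0.0529%. The group means were 0.870 ± 0.343 in delta D (SD, n = 3), 1.20 ± 0.650 in Fd5-5 (n = 2), 1.08 ± 0.240 in delta HpoC (n = 5), 1.0 ± 0.245 in delta HpoN+PH (n = 4) and 4.17 ± 3.50 in delta PCP (n = 5), against 3.21 ± 0.567 in WT X Plus (n = 2). On the 6000 they were 2.14 ± 0.246 in delta A (n = 4), 1.32 ± 0.436 in delta B (n = 4), 1.13 ± 0.0850 in delta C (n = 3), 1.33 ± 0.458 in delta E (n = 4) and 1.16 ± 0.0135 in delta F (n = 3), against 1.99 ± 1.56 in WT 6000 (n = 3). The WT 6000 libraries alone spanned 0.835 to 3.77, so none of the 5 mutants of that sequencer lay outside its wild type.

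Nuclear genes that serve the mitochondrial genome were read from 2 lists. Of 24 respiratory chain subunits that join the mitochondrial ones (24 tested), 21 rose and 0 fell in delta C, 21 and 0 in delta F, 19 and 0 in delta B, 19 and 1 in delta A (UQCR-C1, log2 −1.09), and 0 and 0 in delta E. Of all genes tested 33.8% passed as higher in delta C, 28.2% in delta F, 19.4% in delta B and 30.4% in delta A. Delta C, delta F and delta A lie wholly in the opposite ribosomal RNA class to WT 6000, so their subunit counts and that class cannot be told apart. The subunit medians were log2 1.39 in delta C, 1.13 in delta F, 0.88 in delta B, 0.93 in delta A and 0.43 in delta E, against medians of all genes between −0.03 and 0.05. ATPsynD, a stalk subunit of the ATP synthase, was at 465 ± 60.3 CPM in delta C and 165 ± 18.4 CPM in WT 6000 (SD, n = 3 each; log2 1.47, SE 0.26, edgeR adjusted p = 0.000261). COX4, a nuclear subunit of complex IV, was at 350 ± 18.0 CPM in delta F and 92.8 ± 11.4 CPM in WT 6000 (log2 1.85, SE 0.41, edgeR adjusted p = 0.00306). ATPsynbeta, the catalytic subunit of the ATP synthase, was at 1417 ± 354 CPM in delta B (n = 4) and 717 ± 69.0 CPM in WT 6000 (n = 3; log2 0.95, SE 0.24, edgeR adjusted p = 0.0153). The comparisons of the 6000 share the WT 6000 libraries.

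On the X Plus the median log2 change of the subunits was −1.01 in Fd5-5, −1.26 in delta D, −0.49 in delta PCP, −0.37 in delta HpoN+PH and −0.03 in delta HpoC, against −0.05 to 0.03 over all genes. No subunit passed as lower in these mutants other than delta D. UQCR-C2 and UQCR-C1, the core proteins of complex III, rose in all 5 mutants and were the only subunits to rise; UQCR-C2 was at 140 ± 5.96 CPM in delta D (n = 3) and 173 ± 8.25 CPM in Fd5-5 (n = 2), against 16.0 ± 1.07 CPM in WT X Plus (SD, n = 2; log2 3.12 and 3.43, edgeR adjusted p = 0.000349 and 0.000398). In delta D 9 subunits fell (15.3% of all genes passed as lower). COX5B of complex IV was at 48.2 ± 9.16 CPM in delta D, against 198 ± 18.5 CPM in WT X Plus (log2 −2.04, SE 0.53, edgeR adjusted p = 0.0169). Delta D and Fd5-5 lie wholly in the opposite ribosomal RNA class to WT X Plus, so their subunit changes and that class cannot be told apart. UQCR-C2 differed between the wild types too, at 16.0 ± 1.07 CPM in WT X Plus and 173 ± 23.7 CPM in WT 6000 (log2 −3.43, edgeR adjusted p = 0.00453).

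Of 24 genes for expression and upkeep of the mitochondrial genome, 22 were tested, and the number past the threshold lay near the share of all genes in delta C (8 rose and 7 fell, against 65.8% of all genes in either direction), delta F (7 and 5, against 56.7%) and delta A (5 and 8, against 58.4%). In delta B 2 rose and 2 fell (32.2% of all genes passed), and in delta E 0 and 1 (5.13%). TFAM, which packages mitochondrial DNA, was at 142 ± 15.1 CPM in delta C, 127 ± 6.63 CPM in delta F (n = 3 each) and 94.8 ± 30.0 CPM in delta B (n = 4), against 52.7 ± 4.51 CPM in WT 6000 (SD, n = 3; log2 1.40, 1.20 and 0.82, edgeR adjusted p = 0.000468, 0.00322 and 0.0286). The mitochondrial RNA polymerase gene, mtRNApol, fell to 13.5 ± 1.60 CPM in delta C and 22.6 ± 2.26 CPM in delta F, against 55.6 ± 2.12 CPM in WT 6000 (log2 −2.07 and −1.37, edgeR adjusted p = 0.000249 and 0.00466). The catalytic subunit of the mitochondrial DNA polymerase, tam, fell to 15.4 ± 0.992 CPM in delta C, 21.0 ± 1.68 CPM in delta F, 19.8 ± 2.13 CPM in delta A and 35.1 ± 9.31 CPM in delta E, against 60.2 ± 11.7 CPM in WT 6000 (edgeR adjusted p = 8.27e-05, 0.00118, 0.000178 and 0.0458).

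On the X Plus 3 of the 22 upkeep genes rose in Fd5-5 (4.47% of all genes passed in either direction), 2 in delta HpoC (3.82%), 2 in delta HpoN+PH (4.84%) and 2 in delta PCP (3.61%). In delta D 4 rose and 4 fell (26.5% of all genes passed). Lrpprc2, a fly member of the LRPPRC family that acts on mitochondrial messenger RNAs, was at 134 ± 7.72 CPM in delta D and 120 ± 11.6 CPM in Fd5-5, against 67.2 ± 0.0248 CPM in WT X Plus (log2 0.99 and 0.83, edgeR adjusted p = 0.000515 and 0.00545). Top3alpha, a topoisomerase of nucleus and mitochondria, was at 60.9 ± 5.17 CPM in delta D and 57.3 ± 14.3 CPM in Fd5-5, against 4.57 ± 0.786 CPM in WT X Plus (edgeR adjusted p = 0.00914 and 0.0231). Both also differed between the wild types: Lrpprc2 was at 67.2 ± 0.0248 CPM in WT X Plus and 133 ± 15.0 CPM in WT 6000, and Top3alpha at 4.57 ± 0.786 CPM in WT X Plus and 58.0 ± 5.46 CPM in WT 6000.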

How the data were processed

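RNA sequencing of wing discs gave 42 libraries, named by group and replicate. Per the labels' protocols, libraries were made from 10 ng of total RNA by adapter ligation and 12 to 15 cycles of amplification. The authors deposited estimated counts per gene, not normalized; the submitters' processing notes name FastQC 0.10, Trimmomatic 0.33, Salmon 1.80, edgeR and dm6. How strand, transfer RNA reads or ribosomal RNA were treated is not given in the sources used here. Column headings carry the library names, which tie each to a sample.

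Counts were rounded to whole numbers and tested with edgeR 4.0.16 (quasi-likelihood, TMM scaling, filterByExpr) in R 4.3.3. Each sequencer had 1 fit of its 21 libraries (10775 genes on the X Plus and 10338 on the 6000, with 15 residual degrees of freedom), and 1 fit of all 42 (11294 genes, 30 degrees of freedom) served the wild types. P-values were adjusted by Benjamini-Hochberg over all genes of a comparison, with a threshold of 0.05. CPM levels use the TMM factors of all 42 libraries. The biological coefficient of variation was 49.2%, 39.4% and 45.5%. Total counts ran from 19538216 to 48392408, and amplified copies cannot be told from independent molecules. The tests were tried on simulated data.

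Every mt: symbol was a member, and each tested member enters every comparison; of the nuclear lists, up to 3 genes of smallest p per direction and comparison were open to naming. PolrMT was matched as mtRNApol, and SLIRP1 and PolG2 were not analysed here. Members, lists and the ribosomal RNA class (a limit of 3%, on 44 nuclear of 46 ribosomal RNA symbols) were chosen with earlier results of these data known. Alternatives were DESeq2 1.42.0, its size factors, no filter, scaling without mitochondrial and ribosomal RNA genes, the replicate block, the class as a term, libraries of the wild type's class alone, and leaving out libraries. Same-numbered libraries of different groups did not deviate together, so the numbers were not taken as pairs.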

Additional observations from a re-analysis of the deposited data

Results flagged for a closer look

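In the 6 groups of 4 or 5 libraries, 102 sets of values were examined for a highest or lowest library with a wide gap to its nearest neighbour, and 37 showed one. Chance marks about 1 in 20 independent sets. Sets of the same group share libraries and are not independent, so the count cannot be read against that rate. No explanation of the gaps was tested. Delta E 4 had 13 of them, all on the high side of delta E: the protein-coding transcripts took 0.868% of its counts, and it had 1200 CPM of mt:ATPase6, 16.4 of mt:ATPase8, 2413 of mt:CoI, 1602 of mt:CoII, 2054 of mt:CoIII, 1025 of mt:Cyt-b, 103 of mt:ND1, 35.2 of mt:ND2, 40.8 of mt:ND3, 15.9 of mt:ND4L, 672 of mt:ND5 and 15.9 of mt:ND6.

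Delta HpoN+PH 1 had 10, also on the high side of its group: 1136 CPM of mt:ATPase6, 3053 of mt:CoI, 2338 of mt:CoIII, 106 of mt:ND1, 29.0 of mt:ND2, 42 of mt:ND3, 13.7 of mt:ND4L, 661 of mt:ND5, 14.5 of mt:ND6 and 4.31 of mt:srRNA.

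Delta B 4 had 10 and lay on the low side of delta B for genes: 20.4 CPM of mt:ATPase6, 93.7 of mt:CoI, 90.7 of mt:CoII, 52.6 of mt:CoIII, 49.4 of mt:Cyt-b, 0.225 of mt:ND3, 16.3 of mt:ND4, 0.0450 of mt:ND4L and 0 of mt:ND6. Its mt:lrRNA count per protein-coding count, 1.97, was the highest of delta B.

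Delta PCP 5 stood above the other delta PCP libraries with 31.4 CPM of mt:ND3, 1.40 of mt:ND6 and 14633 of mt:lrRNA, and delta A 2 above the other delta A libraries with 0.692 CPM of mt:ND4L. All but delta A 2 are among the 8 out-of-place libraries.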

How the results depend on the processing

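Counts below are of the 15 members past the threshold, and shares of all genes are given above where they were counted. DESeq2 gave 1 in Fd5-5, 1 in delta HpoC, 2 in delta A and 2 in delta D, and 6 among the X Plus groups. Without a filter on low counts there were 0 in delta A, 2 in delta B and 0 in delta D. The replicate block, whose numbers do not pair the libraries (mean correlation −0.0223 over 88 same-number pairs, 0.00292 between others), gave 0 in delta A, 2 in delta B, 2 in delta D and 0 among the X Plus groups. Adding the ribosomal RNA class to the model gave 6 in delta A, 0 in delta B, delta C, delta F and delta D, 3 in delta HpoC, 2 in delta HpoN+PH and 3 among the X Plus groups. Without the out-of-place libraries there were 4 in Fd5-5, 1 in delta HpoC, 2 in delta HpoN+PH, 14 in delta PCP, 5 in delta D, 8 in delta A, 14 in delta B, 7 between the wild types and 15 among the X Plus groups; within the wild type's class there were 9 in delta HpoC. Leaving out 1 library gave 0 to 2 in delta A, 0 to 14 in delta B, 12 to 15 in delta C, 2 to 15 in delta F, 0 to 2 between the wild types, 0 to 2 in delta PCP (2 without delta PCP 5), and 0 in delta D, Fd5-5, delta HpoC, delta HpoN+PH and delta E.

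Fold changes that turned negative with the class as a term, none past the threshold, were in delta A mt:ND3 (−1.85); in delta B mt:ND2 (−0.93), mt:ATPase6 (−1.48), mt:ND3 (−0.53), mt:ND5 (−1.24) and mt:ND6 (−0.38); in delta C mt:ND2 (−0.19), mt:CoI (−0.59), mt:CoII (−0.30), mt:ATPase6 (−0.75), mt:CoIII (−0.52), mt:ND5 (−0.65), mt:ND4 (−0.98), mt:ND4L (−0.83), mt:Cyt-b (−0.45), mt:ND1 (−0.36), mt:lrRNA (−0.39) and mt:srRNA (−0.21); and in delta F mt:ND2 (−0.62), mt:CoI (−0.85), mt:CoII (−0.77), mt:ATPase6 (−1.16), mt:CoIII (−0.94), mt:ND3 (−0.023), mt:ND5 (−0.76), mt:ND4L (−0.82), mt:ND6 (−0.43), mt:Cyt-b (−0.80), mt:ND1 (−0.73), mt:lrRNA (−0.70) and mt:srRNA (−1.0). The cause was not tested. On the 6000 the term rests on delta B and delta E, where delta B 4 and delta E 4, both out of place, are each alone in their class. Scaling with DESeq2 size factors or without mitochondrial and ribosomal RNA genes changed no call. Transfer RNAs were at the limit of detection at this depth, and mt:ND2, mt:ND6 and mt:ATPase8 had 0 counts in 2 to 4 libraries.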
